A study of Mus musculus with 19 samples.

Results

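Leukocyte marker genes are genes whose transcripts are carried mainly by white blood cells, and they were followed here in RNA from mouse kidney. The list holds 33 genes: 17 of macrophages and other myeloid cells, 3 shared by most leukocytes, 7 of T and natural killer (NK) cells and 6 of B and plasma cells. They were taken by name from a table of 40413 genes, by a list drawn up with earlier results of these data known. Rows were found for 31 of them, and the immunoglobulin constant genes Ighm and Igkc were not analysed here. After a filter on low counts 16421 genes were tested, among them 29 of the listed genes. Cd163 and Cd3d did not pass that filter and are given by their values only.

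The kidneys came from adult mice of the strains BPH/2J, which has high blood pressure, and BPN/3J, its normotensive counterpart. Both strains were given Cmpd17b, an agonist of the formyl peptide receptors, by intraperitoneal injection at 50 mg/kg per day for 28 days, or vehicle. The groups compared were BPH/2J Cmpd17b (4 libraries, replicates 2 to 5), BPH/2J vehicle (5 libraries), BPN/3J Cmpd17b (5 libraries) and BPN/3J vehicle (4 libraries), each library from 1 mouse. The labels give no transgene or other allele, no age in weeks and no sex, and every library carries batch label 2. Library numbers run in a separate block for each group, so any effect of library order cannot be told apart from strain and agent. BPH/2J Cmpd17b replicate 1 was left out of the comparisons. Its summed level of 16 kidney tubule and glomerulus genes was 122 CPM (counts of a gene relative to the scaled library total), against 8029 to 9624 CPM in the 18 libraries used, and its summed level of heart muscle genes was 75670 CPM, against at most 208 CPM. Values of that library are relative to its own total.

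Macrophages are the main leukocytes that live in a healthy kidney, where they take up immune complexes and debris. They are recognised by surface receptors such as F4/80, by the complement component C1q and by lysosomal enzymes. T and B cells are sparse in an uninjured kidney and are known to enter it in hypertension and injury, and formyl peptide receptors are best known from neutrophils and macrophages, which they steer towards bacterial and mitochondrial peptides. In whole-kidney RNA, fewer cells of a type and less RNA of that gene per cell cannot be told apart.

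Total counts ran from 21400111 to 28961333 in the BPH/2J Cmpd17b libraries, from 25840891 to 33616451 in BPH/2J vehicle, from 25546681 to 34244282 in BPN/3J Cmpd17b and from 28527513 to 40998650 in BPN/3J vehicle. Mitochondrially encoded transcripts made up 16.3% to 26.2% of the counts in BPH/2J Cmpd17b, 15.8% to 21.2% in BPH/2J vehicle, 12.5% to 14.7% in BPN/3J Cmpd17b and 13.0% to 16.0% in BPN/3J vehicle. BPH/2J vehicle replicate 2 stood apart for the genes described here. It was the highest library of its group for 23 of the 31 genes, whereas it was the highest of its group for 14.98% of all genes tested. Results on the listed genes that rest on this mouse are given with and without it below. Heart muscle genes summed to between 145 and 208 CPM in BPH/2J Cmpd17b, to between 5.86 and 14.96 CPM in BPH/2J vehicle, to between 6.86 and 13.2 CPM in BPN/3J Cmpd17b and to between 7.06 and 12.6 CPM in BPN/3J vehicle. The heart muscle level of the 4 treated BPH/2J libraries was 0.192% to 0.275% of that in the library left out.

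All leukocyte genes were minor transcripts of the kidney. Per kilobase of exon, the mean level over the 18 libraries was highest for Jchain (11.9 CPM per kb), which encodes the joining chain of secreted IgA and IgM. It was followed by Lyz2 (9.69 CPM per kb), the macrophage lysozyme, and Csf1r (8.86 CPM per kb), the receptor through which macrophages receive survival signals. C1qa, a chain of complement C1q, averaged 6.69 CPM per kb. T cell genes were far lower, with Cd3e, a chain of the T cell receptor complex, at 0.149 CPM per kb and the coreceptor gene Cd4 at 0.0877 CPM per kb. Cd163, the scavenger receptor for haemoglobin, was the lowest of the 31 at 0.0161 CPM per kb. Its level in the library left out was 9.08 CPM, from 281 reads, against 0 to 6 reads in each of the other 18 libraries.

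**Figure D1:**
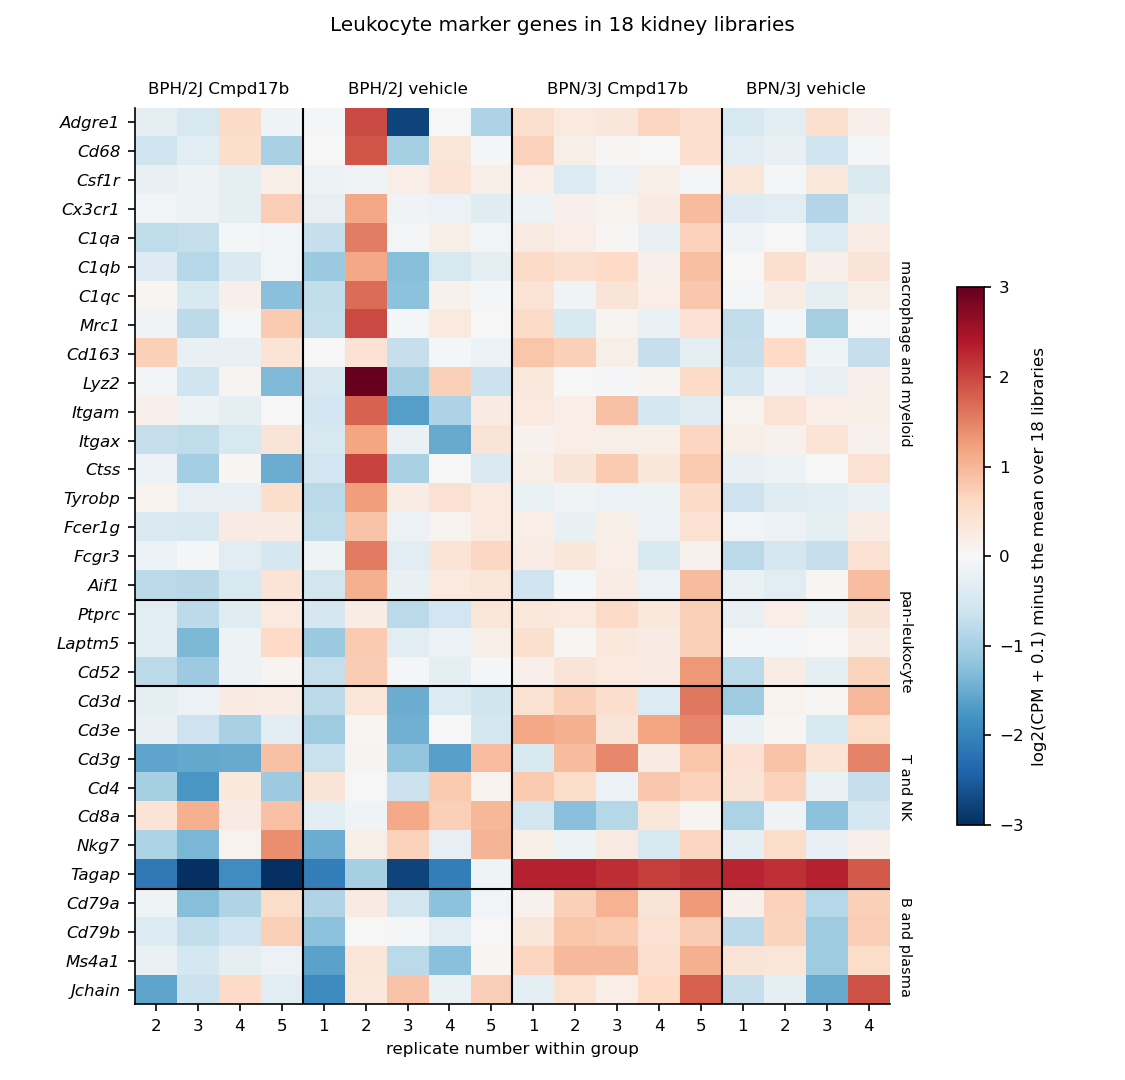
Level of each of the 31 genes (rows, grouped by cell type) in each of the 18 libraries (columns, grouped by strain and treatment), as log2(CPM + 0.1) minus the gene's mean over the libraries; the color scale runs from -3 to 3. The row of Tagap divides the strains, and the macrophage rows are high in BPH/2J vehicle replicate 2.

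The main comparison between the strains gave few differences among these genes, and the largest by far was in Tagap. In vehicle mice 1 of the 29 tested genes was higher in BPH/2J (Cd8a) and 1 was lower (Tagap), which is 6.90% of them, while 10.8% of all genes tested were called in that comparison, 5.82% as higher and 4.94% as lower. In Cmpd17b-treated mice none was higher and 2 were lower (Tagap and Cd3e), again 6.90%, against 10.4% of all genes, 5.71% higher and 4.65% lower. Averaged over both arms, 1 was higher (Cd8a) and 3 were lower (Tagap, Cd3e and Cd79a), or 13.8%, against 23.6% of all genes, 13.2% higher and 10.4% lower. In this fit the shares of called leukocyte genes were below those of all genes. Averaged over both arms DESeq2 called 27.6% of the 29 and 27.6% of all genes, and limma-voom 27.6% and 22.7%, so the leukocyte share was below that of all genes under neither tool. Calls are from edgeR's quasi-likelihood test, at p under 0.05 after adjustment over all 16421 genes.

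Tagap encodes a GTPase-activating protein of activated T cells. Tagap1, which lies 4 tested genes away on mouse chromosome 17, is a near copy: their annotated transcripts were 99.0% identical over an aligned stretch of 2152 bases, which is 69.9% of the 3076 bases of Tagap. The last coding exon is 1244 bases long in both and differs at 6 positions. The printed stretch holds 2 of those differences (in capitals, where the copies differ) and shows how few bases can assign a read to Tagap or to Tagap1. Coordinates are of GENCODE M21 on GRCm38 and are not those of the build used for the counts, mm39. The Tagap stretch lies at chr17:7932959-7933078 on the plus strand, the Tagap1 stretch at chr17:6956829-6956948 on the minus strand.
Tagap coding stretch: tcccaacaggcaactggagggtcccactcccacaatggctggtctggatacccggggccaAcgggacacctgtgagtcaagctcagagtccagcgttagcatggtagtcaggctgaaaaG
Tagap1 coding stretch: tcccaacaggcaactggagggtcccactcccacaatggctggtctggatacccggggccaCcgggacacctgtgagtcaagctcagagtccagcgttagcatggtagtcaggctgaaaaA

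The first 926 bases of the Tagap transcript lie outside the aligned stretch. The 250 bases before each start are shown because the level of one copy was low where that of the other was high. They are RefSeq sequences of GRCm38.p6, Tagap at chr17:7925750-7925999 (plus strand) and Tagap1 at chr17:6961157-6961406 (minus strand). The Tagap promoter had a GC content of 52.8% with 6 CG pairs, and that of Tagap1 had 67.2% with 29. Capitals mark GAGGAAGT, a purine-rich word of the kind that the leukocyte transcription factor PU.1 binds, searched on both strands with no other motif.
Tagap promoter: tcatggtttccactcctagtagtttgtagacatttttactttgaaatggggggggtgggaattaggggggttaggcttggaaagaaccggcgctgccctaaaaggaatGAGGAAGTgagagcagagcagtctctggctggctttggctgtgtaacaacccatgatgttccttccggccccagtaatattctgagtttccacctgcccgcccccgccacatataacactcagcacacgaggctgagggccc
Tagap1 promoter: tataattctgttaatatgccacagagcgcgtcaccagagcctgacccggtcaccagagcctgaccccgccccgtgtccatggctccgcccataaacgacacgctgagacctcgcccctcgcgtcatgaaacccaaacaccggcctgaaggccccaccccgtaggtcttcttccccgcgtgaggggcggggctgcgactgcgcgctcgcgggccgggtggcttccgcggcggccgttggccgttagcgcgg

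The word was present in 802 of 32851 mouse promoters of this length (2.44%) and in those of 2 of the 23 leukocyte genes with a promoter entry, Tagap and C1qc. A match describes the letters only.

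Tagap stood at 0.401, 0.151, 0.506 and 0 CPM in BPH/2J Cmpd17b kidneys and at 0.423, 0.996, 0.224, 0.422 and 1.90 CPM in BPH/2J vehicle kidneys. It stood at 10.7, 10.8, 10.2, 9.12 and 9.61 CPM in BPN/3J Cmpd17b kidneys and at 10.6, 10.02, 10.8 and 7.80 CPM in BPN/3J vehicle kidneys. Every BPH/2J kidney was below every BPN/3J kidney, in both arms. Over both arms Tagap alone of the 29 genes had ranges apart, against 5.75% of all genes tested. The mean was 0.559 ± 0.576 CPM in BPH/2J and 9.95 ± 0.989 CPM in BPN/3J (SD, n = 9 each), and the fitted difference averaged over the arms was -4.39 on the log2 scale (SE 0.35; edgeR adjusted p = 3.3e-08), a level 21.04-fold lower in BPH/2J. In vehicle mice it was -3.66 (SE 0.44; adjusted p = 1.9e-05) and in Cmpd17b-treated mice -5.13 (SE 0.54; adjusted p = 2.82e-06). The call held without any single library.

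Tagap1 went the other way, at 34.5, 43.5, 32.003 and 48.0 CPM in BPH/2J Cmpd17b and 36.1, 35.6, 39.6, 33.2 and 41.4 CPM in BPH/2J vehicle. The values were 12.6, 11.3, 12.8, 10.97 and 14.7 CPM in BPN/3J Cmpd17b and 13.2, 12.5, 14.0 and 15.8 CPM in BPN/3J vehicle. The strains did not overlap, with BPH/2J the higher, and Tagap1 was 1.54 higher in BPH/2J on the log2 scale (SE 0.09; edgeR adjusted p = 6.09e-10). The sum of the copies was 38.8 ± 5.26 CPM in BPH/2J and 23.0 ± 1.38 CPM in BPN/3J (SD, n = 9 each), again without overlap. Estimated counts of Tagap were not whole numbers in 18 of the 19 libraries, and the sources used here do not state how reads shared by the copies were treated, so the level of each copy is uncertain. Of the neighbouring tested genes, Rnaset2b was at 92.5 CPM in BPH/2J and 6.87 CPM in BPN/3J (log2 difference 3.75; adjusted p = 3.96e-11), and its paralogue Rnaset2a, also beside Tagap, was at 112 CPM in BPH/2J and 156 CPM in BPN/3J (log2 difference -0.49; adjusted p = 0.000178). The part of the read assignment in these differences was not tested.

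**Figure D2:**
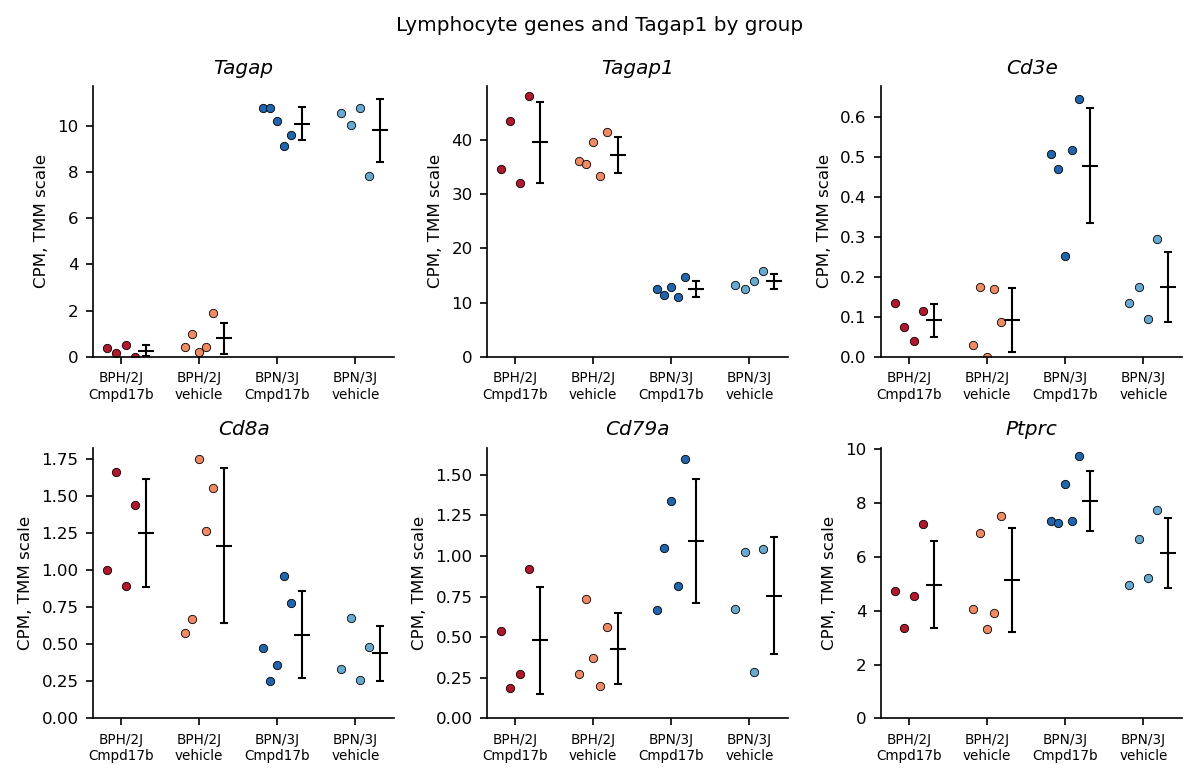
CPM (y axis) of Tagap, its near copy Tagap1, Cd3e, Cd8a, Cd79a and Ptprc in each library (points) of the 4 groups (x axis), with the mean and SD as bars. Tagap and Tagap1 separate the strains in opposite directions without overlap, while the BPH/2J and BPN/3J points of the other 4 genes overlap.

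Cd8a encodes the alpha chain of the cytotoxic T cell coreceptor, which some dendritic cells also carry. In the fit of 18 libraries it was the only listed gene called higher in BPH/2J. It stood at 1.004, 1.66, 0.895 and 1.44 CPM in BPH/2J Cmpd17b and at 0.574, 0.674, 1.75, 1.27 and 1.56 CPM in BPH/2J vehicle. The values were 0.475, 0.249, 0.363, 0.960 and 0.781 CPM in BPN/3J Cmpd17b and 0.336, 0.674, 0.259 and 0.482 CPM in BPN/3J vehicle. BPH/2J kidneys were mostly the higher, and the strains overlapped in both arms. The mean was 1.203 ± 0.435 CPM in BPH/2J and 0.509 ± 0.247 CPM in BPN/3J (SD, n = 9 each), a log2 difference of 1.27 (SE 0.31; edgeR adjusted p = 0.00545), which held without any single library. In vehicle mice alone the difference was 1.40 (SE 0.44; adjusted p = 0.0490). That call was lost in 12 of 18 fits that left out 1 library, with adjusted p between 0.0250 and 0.155 over the 18. It was kept only when the library left out was BPH/2J Cmpd17b replicate 5, BPH/2J vehicle replicate 1 or 2, BPN/3J Cmpd17b replicate 2 or 4, or BPN/3J vehicle replicate 2. In Cmpd17b-treated mice the difference was 1.15 (SE 0.43; adjusted p = 0.0999). Cd8b1, the beta chain that pairs with Cd8a on conventional cytotoxic T cells, had 0 to 6 reads per library and was not tested.

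The chains of CD3, which carry the T cell receptor signal, did not share the direction of Cd8a. Cd3e was at 0.134, 0.0757, 0.0389 and 0.115 CPM in BPH/2J Cmpd17b and at 0.0302, 0.176, 0, 0.169 and 0.0865 CPM in BPH/2J vehicle, from 0 to 6 reads a library. It was at 0.507, 0.470, 0.251, 0.517 and 0.645 CPM in BPN/3J Cmpd17b and at 0.134, 0.176, 0.0943 and 0.295 CPM in BPN/3J vehicle, from 4 to 19 reads. Treated BPH/2J kidneys were all below treated BPN/3J kidneys, whereas the vehicle groups overlapped. Cd3e fell in BPH/2J by 2.34 on the log2 scale among treated mice (SE 0.62; edgeR adjusted p = 0.0183) and by 1.59 averaged over the arms (SE 0.43; adjusted p = 0.0122). In vehicle mice the difference was -0.84 (SE 0.60; adjusted p = 0.424). The call among treated mice was lost without BPH/2J Cmpd17b replicate 3 (adjusted p = 0.0546) or replicate 4 (adjusted p = 0.0629). Over the 21 alternatives that tested Cd3e, the adjusted p ran from 0.00669 to 0.0629. Cd3e did not pass the count filter in 4 of the 18 fits that left out a library, so those fits cannot tell whether its calls hold. No BPH/2J library reached the 10 counts of the filter, so Cd3e was tested only because of its higher level in BPN/3J kidneys.

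Cd3g, the gamma chain, had an averaged difference of -1.59 (SE 0.57; edgeR adjusted p = 0.0502), just above the threshold, and the delta chain gene Cd3d was not tested. The 3 CD3 chains summed to between 0.265 and 0.980 CPM in BPH/2J Cmpd17b, to between 0.0746 and 0.822 CPM in BPH/2J vehicle, to between 0.982 and 2.00 CPM in BPN/3J Cmpd17b and to between 0.605 and 1.77 CPM in BPN/3J vehicle. The treated groups stood next to each other without touching, and the vehicle groups overlapped. Cd4, the helper T cell coreceptor, was not called, at -0.84 averaged over the arms (adjusted p = 0.182). Nkg7, a granule gene of NK and cytotoxic T cells, was at 0.134, 0.0757, 0.389 and 1.10 CPM in BPH/2J Cmpd17b, 0.0605, 0.410, 0.634, 0.281 and 0.822 CPM in BPH/2J vehicle, 0.412, 0.304, 0.447, 0.222 and 0.611 CPM in BPN/3J Cmpd17b and 0.269, 0.557, 0.283 and 0.402 CPM in BPN/3J vehicle. All 4 groups overlapped, and the averaged difference was 0.09 (SE 0.46; adjusted p = 0.902).

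The 4 measured B and plasma cell genes were lower on average in BPH/2J, and 1 of them, Cd79a, was called. Cd79a, which with Cd79b forms the signalling pair of the B cell receptor, was at 0.535, 0.189, 0.273 and 0.923 CPM in BPH/2J Cmpd17b and 0.272, 0.733, 0.373, 0.197 and 0.562 CPM in BPH/2J vehicle. Its levels were 0.665, 1.05, 1.34, 0.813 and 1.60 CPM in BPN/3J Cmpd17b and 0.672, 1.03, 0.283 and 1.04 CPM in BPN/3J vehicle. Individual kidneys of the strains overlapped in both arms. The averaged difference was -1.02 (SE 0.35; edgeR adjusted p = 0.0401). This call was lost in 11 of 18 fits that left out 1 library: BPH/2J Cmpd17b replicates 3 and 4, BPH/2J vehicle replicates 1, 3 and 4, BPN/3J Cmpd17b replicates 2, 3 and 5, and BPN/3J vehicle replicates 1, 2 and 4. Adjusted p lay between 0.0140 and 0.0848 over all 18.

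Cd79b averaged 0.596 ± 0.278 CPM in BPH/2J and 0.982 ± 0.396 CPM in BPN/3J (SD, n = 9 each), with a log2 difference of -0.67 (SE 0.32; edgeR adjusted p = 0.14). Ms4a1, which encodes CD20, averaged 0.136 ± 0.0924 CPM in BPH/2J and 0.361 ± 0.150 CPM in BPN/3J, with a difference of -1.28 (SE 0.47; adjusted p = 0.0558). Neither was called. Jchain varied widely among mice of the same group: it was at 4.25, 8.17, 19.3 and 10.1 CPM in BPH/2J Cmpd17b, 3.42, 16.0, 23.7, 11.3 and 21.6 CPM in BPH/2J vehicle, 10.7, 17.7, 14.9, 19.6 and 45.0 CPM in BPN/3J Cmpd17b and 7.9997, 10.5, 4.45 and 48.7 CPM in BPN/3J vehicle. The groups overlapped throughout, and each BPN/3J group had 1 kidney far above the rest. Its averaged difference was -0.64 (SE 0.45; adjusted p = 0.312).

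Ptprc encodes CD45, the phosphatase on nearly all nucleated blood cells, and stands for leukocytes as a whole. It was at 4.72, 3.37, 4.56 and 7.21 CPM in BPH/2J Cmpd17b and 4.08, 6.89, 3.32, 3.91 and 7.53 CPM in BPH/2J vehicle, against 7.35, 7.25, 8.71, 7.35 and 9.74 CPM in BPN/3J Cmpd17b and 4.94, 6.68, 5.23 and 7.74 CPM in BPN/3J vehicle. Treated BPH/2J kidneys lay just below treated BPN/3J kidneys, and the vehicle groups overlapped. The averaged log2 difference was -0.49 (SE 0.18; edgeR adjusted p = 0.053), above the threshold in this test. DESeq2 gave an adjusted p of 0.0247 and limma-voom 0.0223, within a range of 0.0166 to 0.196 over all alternatives. The lysosomal membrane gene Laptm5 differed by -0.29 (adjusted p = 0.377) and Cd52, a small surface glycoprotein of lymphocytes and monocytes, by -0.52 (adjusted p = 0.154), and neither was called.

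**Figure D3:**
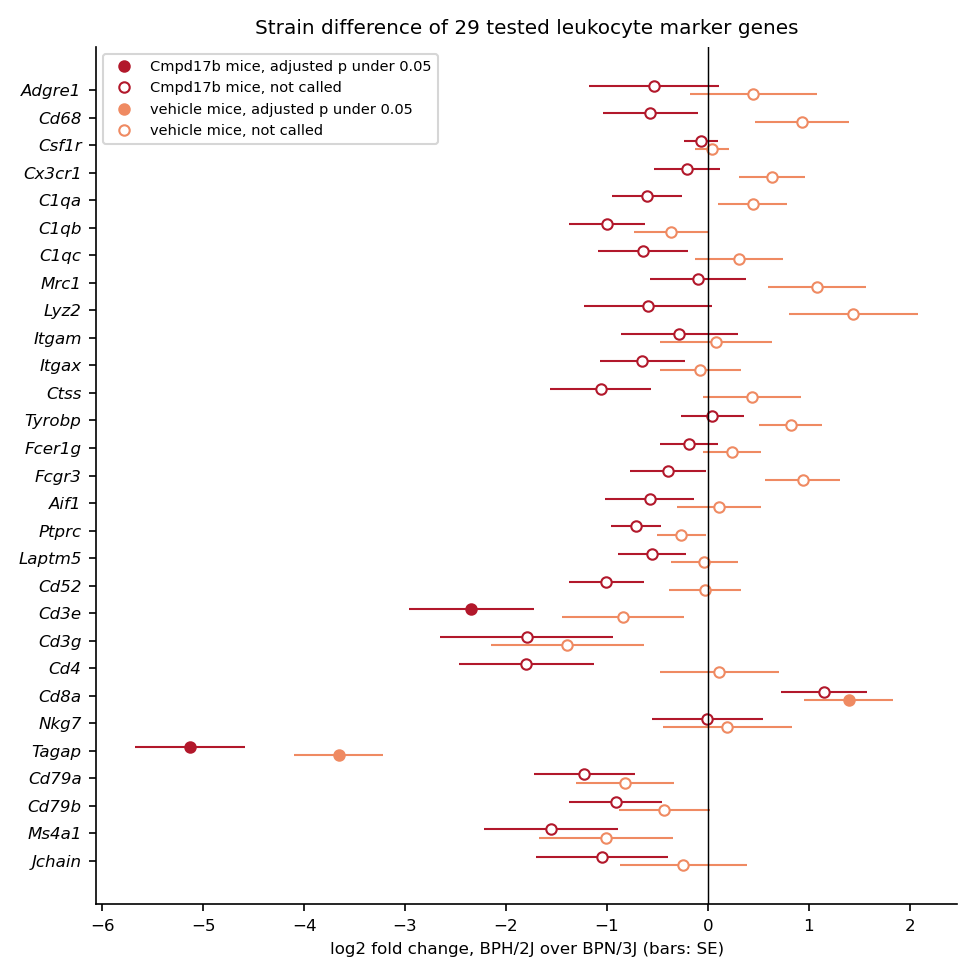
Log2 difference of BPH/2J over BPN/3J (x axis) for each of the 29 tested genes (y axis, grouped by cell type), in Cmpd17b-treated and in vehicle mice; bars are SE and filled points are called at an adjusted p under 0.05. Macrophage genes are mostly left of 0 in treated mice (15 of 16) and right of 0 in vehicle mice (14 of 16), with no filled point.

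None of the 16 tested macrophage and myeloid genes was called in edgeR in any of the 3 comparisons of the strains. An unadjusted p under 0.05 was found for 2 of the 16 in Cmpd17b-treated mice, against 3953 of all 16421 genes. In vehicle mice it was found for 4 of the 16, against 3932 of all genes. Averaged over both arms it was found for 1 of the 16, against 5960 of all genes. DESeq2 and limma-voom each called 1, C1qb, lower in BPH/2J averaged over both arms, and none within either arm. The median log2 difference of the 16 genes was -0.55 in Cmpd17b-treated mice, with 1 above 0, and 0.44 in vehicle mice, with 14 above 0, while the median of all genes tested was 0.01 in treated and 0.04 in vehicle mice. The vehicle median depends on 1 mouse: without BPH/2J vehicle replicate 2 it was -0.06, with 6 genes above 0. Without that mouse C1qb was called lower in BPH/2J in vehicle mice (log2 difference -1.01; adjusted p = 0.0101, within 0.0101 to 0.868 over all alternatives), and C1qb and Ctss were called lower among treated mice. Over all 29 genes and both arms, 1 was then higher and 7 were lower: C1qb, Cd3e, Cd79a, Ctss, Ms4a1, Ptprc and Tagap. These 8 are 27.6% of the 29, while 23.2% of all genes were called without that mouse, 12.7% higher and 10.5% lower. Of the 7, Cd3e and Ms4a1 were tested only because of their higher level in BPN/3J kidneys. Some fits that left out another library gave macrophage calls in the other direction, each in 1 of 18 fits. Tyrobp was called higher in BPH/2J in vehicle mice (edgeR adjusted p = 0.0167) and averaged over both arms (adjusted p = 0.0376). Fcgr3 was called higher in vehicle mice (adjusted p = 0.0345).

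Cd68, a lysosomal protein of macrophages, was at 0.770, 0.946, 1.79 and 0.577 CPM in BPH/2J Cmpd17b and 1.21, 4.81, 0.560, 1.60 and 1.17 CPM in BPH/2J vehicle, against 2.03, 1.38, 1.26, 1.22 and 1.77 CPM in BPN/3J Cmpd17b and 0.941, 1.03, 0.778 and 1.18 CPM in BPN/3J vehicle. Adgre1, which encodes F4/80, was at 0.669, 0.568, 1.28 and 0.750 CPM in BPH/2J Cmpd17b and 0.816, 3.60, 0.0373, 0.844 and 0.389 CPM in BPH/2J vehicle, against 1.204, 1.05, 1.09, 1.37 and 1.22 CPM in BPN/3J Cmpd17b and 0.571, 0.645, 1.202 and 0.938 CPM in BPN/3J vehicle. For both genes the single high value was that of BPH/2J vehicle replicate 2, and the strains overlapped in each arm. The averaged strain difference was 0.18 for Cd68 (SE 0.33; edgeR adjusted p = 0.709) and -0.04 for Adgre1 (SE 0.45; adjusted p = 0.959). Csf1r was the steadiest of the group, at 34.9 to 47.9 CPM in BPH/2J Cmpd17b, 38.7 to 56.8 CPM in BPH/2J vehicle, 31.9 to 48.7 CPM in BPN/3J Cmpd17b and 31.7 to 54.6 CPM in BPN/3J vehicle, with an averaged difference of -0.01 (SE 0.12; adjusted p = 0.947).

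Cd163 was at 0.167, 0.0378, 0.0389 and 0.115 CPM in BPH/2J Cmpd17b, 0.0605, 0.117, 0, 0.0562 and 0.0432 CPM in BPH/2J vehicle, 0.190, 0.166, 0.0838, 0 and 0.0340 CPM in BPN/3J Cmpd17b and 0, 0.147, 0.0471 and 0 CPM in BPN/3J vehicle. These are values of a few reads, and the groups overlapped.

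The 3 chains of C1q, which binds antibody and starts the classical complement pathway, are encoded by adjacent genes on chromosome 4 and are made in the kidney by macrophages. Promoters of C1qb and C1qc are shown because the levels of the 3 genes were high in the same kidney. They are the 250 bases before each start in RefSeq GRCm38.p6, C1qb at chr4:136886201-136886450 and C1qc at chr4:136892915-136893164, both on the minus strand, with capitals again marking GAGGAAGT on either strand.
C1qb promoter: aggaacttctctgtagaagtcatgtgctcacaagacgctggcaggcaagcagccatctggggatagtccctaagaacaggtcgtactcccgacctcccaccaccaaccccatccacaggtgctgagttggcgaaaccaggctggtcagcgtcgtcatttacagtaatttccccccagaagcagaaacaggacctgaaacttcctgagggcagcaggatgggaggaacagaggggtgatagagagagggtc
C1qc promoter: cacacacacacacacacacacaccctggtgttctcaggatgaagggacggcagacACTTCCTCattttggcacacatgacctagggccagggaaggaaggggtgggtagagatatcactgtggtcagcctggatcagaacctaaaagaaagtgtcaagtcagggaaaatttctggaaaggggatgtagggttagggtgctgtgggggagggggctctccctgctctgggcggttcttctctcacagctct

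C1qa was at 3.78, 3.86, 6.31 and 6.05 CPM in BPH/2J Cmpd17b and 3.96, 18.9, 6.16, 7.28 and 6.05 CPM in BPH/2J vehicle. It was at 7.80, 7.41, 6.64, 5.50 and 10.5 CPM in BPN/3J Cmpd17b and 6.02, 6.48, 4.90 and 7.53 CPM in BPN/3J vehicle. Apart from the second BPH/2J vehicle kidney, all values lay between 3.78 and 10.5 CPM and the groups overlapped. The averaged difference between the strains was -0.08 for C1qa (SE 0.24; edgeR adjusted p = 0.835), -0.68 for C1qb (SE 0.26; adjusted p = 0.0667) and -0.17 for C1qc (SE 0.31; adjusted p = 0.723). Without BPH/2J vehicle replicate 2 the C1qb difference was -0.9996 (adjusted p = 0.000213), and over all alternatives its adjusted p ran from 0.000213 to 0.867.

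BPH/2J vehicle replicate 2 was the highest of its group for 16 of the 17 macrophage and myeloid genes, and the median of its ratio to the mean of the other 4 mice of its group was 3.22. Lyz2 was at 81.0 CPM in this kidney, against 4.63 to 15.5 CPM in the other 4, a ratio of 9.90. Ctss, a lysosomal protease of antigen-presenting cells, was at 21.9 CPM in it, against 2.65 to 5.34 CPM in the other 4. Csf1r was the exception among the 17, at 0.827 times the mean of the others. Lyz2 shares 95.8% of 1264 aligned bases with its paralogue Lyz1, whose level was 1.82 CPM or less in every library. Genes off the list, chosen after their values were seen, were high too: the lipid receptor gene Trem2 was at 1.93 CPM, against 0.0373 to 0.476 CPM in the other 4, the monocyte chemokine receptor gene Ccr2 at 7.9998 CPM, against 1.06 to 2.51 CPM, and the collagen gene Col1a1 at 24.9 CPM, against 3.89 to 6.64 CPM. This kidney was the highest of its group for 21 of 31 further macrophage genes and 7 of 11 further B cell genes. The same held for 10 of 14 dendritic cell and MHC class II genes. The count was 4 of 18 for further T and NK genes, while 14.98% of all genes tested were highest in this kidney. It was 0 of 4 for neutrophil genes, 0 of 6 for red blood cell genes and 0 of 9 for fat cell genes. The MHC class II genes H2-Aa and H2-Eb1 were at 3.33 and 2.90 times the mean of the other 4. The high values were therefore not confined to macrophage genes.

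**Figure D4:**
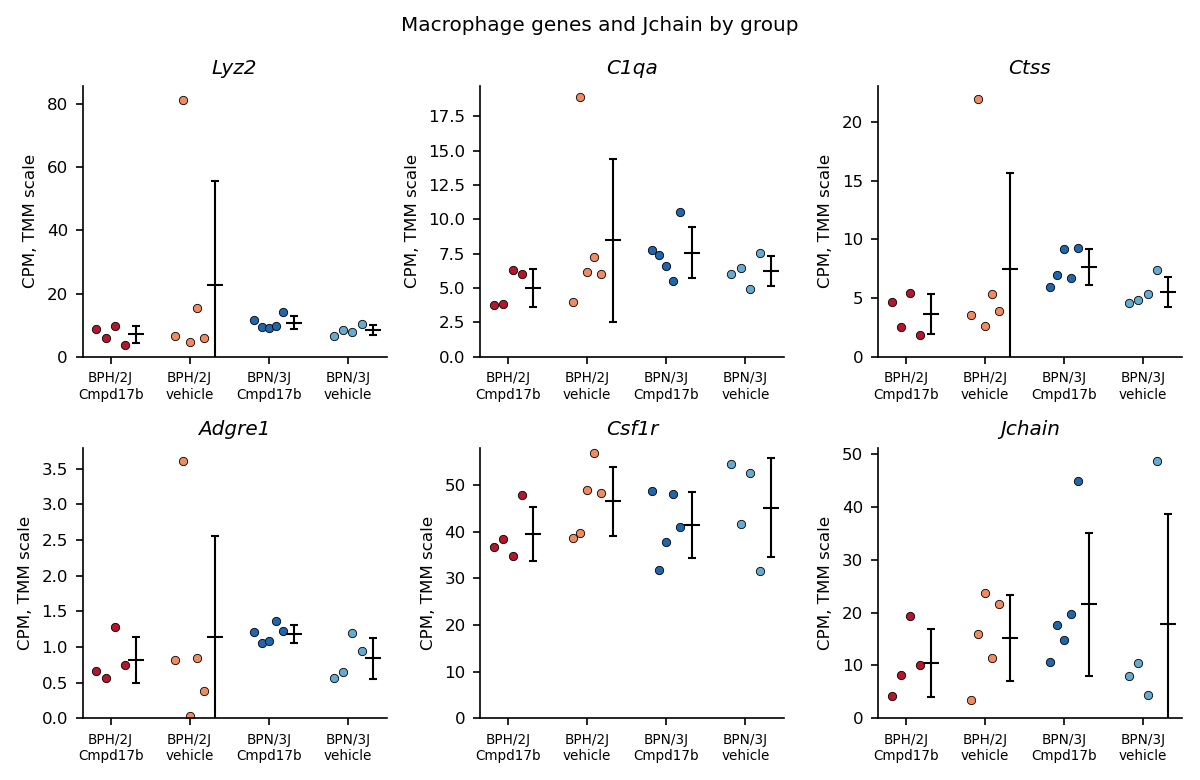
CPM (y axis) of Lyz2, C1qa, Ctss, Adgre1, Csf1r and Jchain in each library (points) of the 4 groups (x axis), with the mean and SD as bars, cut at 0. The single high BPH/2J vehicle point of Lyz2 (81.0 CPM), C1qa (18.9 CPM), Ctss (21.9 CPM) and Adgre1 (3.60 CPM) is the same mouse, and it is not high for Csf1r.

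None of the 29 tested genes passed the threshold for a difference between Cmpd17b and vehicle, in either strain. In BPH/2J 0 of 29 were called by edgeR, by DESeq2 and by limma-voom, against 0.164% of all genes in edgeR. An unadjusted p under 0.05 in edgeR was found for 4 of the 29 and for 608 of all 16421 genes. In BPN/3J 0 of 29 were called by each of the 3 tools, against 0% of all genes in edgeR. There 2 of the 29 and 415 of all genes had an unadjusted p under 0.05. Averaged over the strains, 0 of 29 were called by each tool, against 0.067% of all genes in edgeR. An unadjusted p under 0.05 was then found for 0 of the 29 and for 564 of all genes. For the difference between the strains in their response, 0 of 29 were called by each tool, against 0.0304% of all genes in edgeR. Here 7 of the 29 and 529 of all genes had an unadjusted p under 0.05.

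In BPH/2J 25 of the 29 differences between Cmpd17b and vehicle were negative, with a median of -0.47 on the log2 scale, against a median of -0.01 for all genes. The 16 macrophage genes were all negative, with a median of -0.56. Lyz2 averaged 7.11 ± 2.77 CPM in Cmpd17b (n = 4) and 22.7 ± 32.8 CPM in vehicle (n = 5), a log2 difference of -1.67 (SE 0.65; unadjusted p = 0.0191; edgeR adjusted p = 1). Vehicle replicate 2 carried this pattern. Without it the median over the 29 genes was -0.04, with 13 positive and 16 negative, that of the macrophage genes was -0.03, with 7 positive and 9 negative, and Lyz2 differed by -0.20. C1qa moved to -0.23, having been -0.77 with that mouse, and Adgre1 to 0.62, having been -0.49. With the heart-rich library included with the treated mice, the median over 30 genes was 0.19. The part of heart muscle RNA in the treated BPH/2J libraries was not tested. The same share of the left-out library's Lyz2 level would be 0.227 to 0.325 CPM, against 3.69 to 9.85 CPM measured in them. For Cd163, a gene of a few reads, it would be 0.0174 to 0.0250 CPM, against 0.0378 to 0.167 CPM measured.

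**Figure D5:**
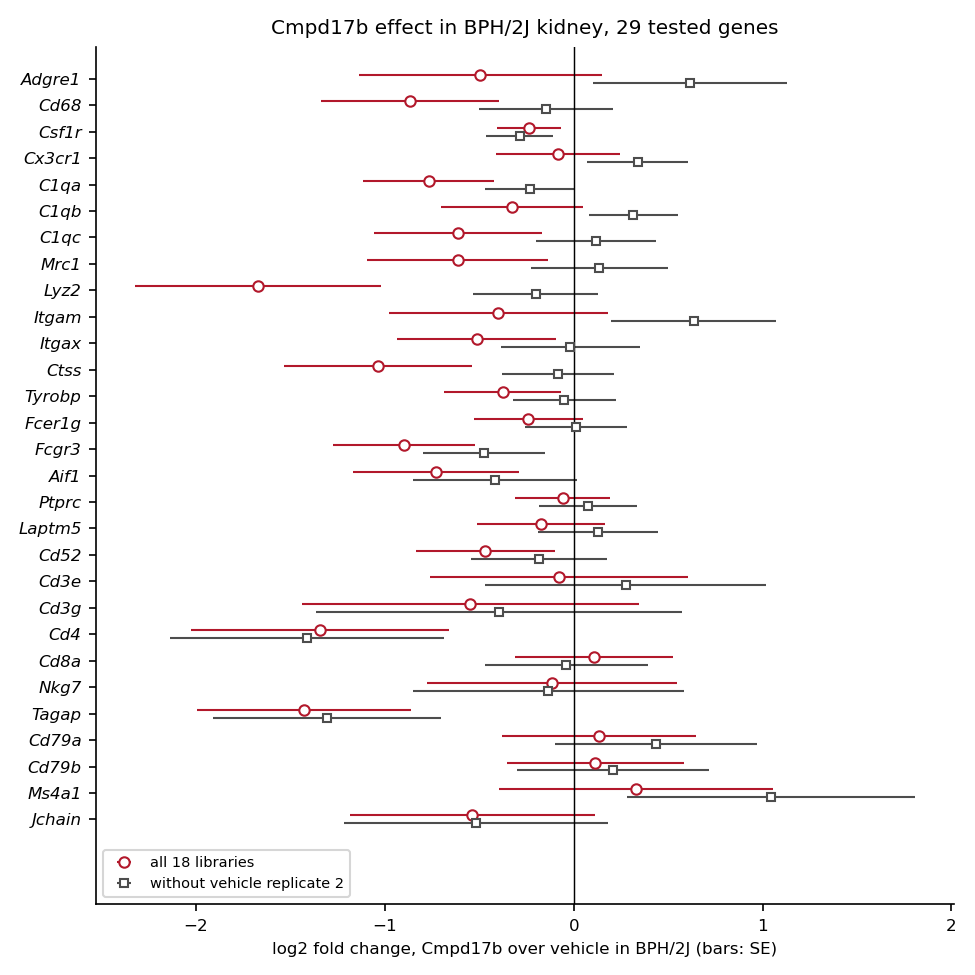
Log2 difference of Cmpd17b over vehicle in BPH/2J (x axis) for each tested gene (y axis), with all 5 vehicle mice and without vehicle replicate 2. With all 5, the 16 macrophage genes lie left of 0; without replicate 2, 9 of them do, and the median of all 29 is -0.04.

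In BPN/3J 25 of 29 differences were positive, with a median of 0.36, against -0.00 for all genes. Single kidneys were high in both BPN/3J groups: Cmpd17b replicate 5 was the highest of its group for 19 of 31 genes (61.3%, against 32.8% of all genes) and vehicle replicate 4 for 20 of 31 (64.5%, against 35.2%). Without Cmpd17b replicate 5 the median was 0.22, with 22 of 28 positive, and without vehicle replicate 4 it was 0.46, with 26 of 29 positive. Treated BPN/3J kidneys lay wholly above vehicle kidneys for 3 of the 29 genes (Cd68, Cx3cr1 and Tyrobp), whereas this held for 1.03% of all genes tested; all 3 missed the threshold of the test (edgeR adjusted p = 1 for each). Tyrobp encodes the adaptor DAP12 of myeloid receptors and averaged 2.99 ± 0.796 CPM in Cmpd17b (n = 5) and 2.26 ± 0.279 CPM in vehicle (n = 4). Cx3cr1, the fractalkine receptor of kidney macrophages, averaged 3.71 ± 1.23 CPM in Cmpd17b and 2.19 ± 0.423 CPM in vehicle, a log2 difference of 0.76 (SE 0.33; adjusted p = 1). Cmpd17b replicate 5 held the highest value of both genes, at 4.41 CPM for Tyrobp and 5.84 CPM for Cx3cr1. Cd3e averaged 0.478 ± 0.143 CPM in Cmpd17b and 0.175 ± 0.0866 CPM in vehicle, with a difference of 1.43 (SE 0.54; adjusted p = 1). The BPN/3J vehicle group also enters the strain difference in vehicle mice, and the BPN/3J Cmpd17b group that in treated mice, so these comparisons share libraries.

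The intervals show what these groups could and could not tell. They are normal approximations from the fitted SE, and so somewhat narrower than the F-test of edgeR would give. The 95% interval of the Cmpd17b difference for Ptprc was -0.55 to 0.44 on the log2 scale in BPH/2J and -0.09 to 0.88 in BPN/3J. For Csf1r in BPH/2J it was -0.57 to 0.09. For Adgre1 it was wider, -1.76 to 0.77 in BPH/2J and -0.75 to 1.72 in BPN/3J, and for Cd8a -0.71 to 0.93 in BPH/2J and -0.52 to 1.22 in BPN/3J. For Adgre1 a decrease of 1 log2 unit lay within the interval in BPH/2J, and an increase of 1 unit within that in BPN/3J.

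None of the 29 genes was called for a difference between the strains in their response to Cmpd17b. All 29 interaction terms were negative, with a median of -0.78, while 8244 of all 16421 genes had a positive one. Without BPH/2J vehicle replicate 2 the median was -0.39, with 25 of 29 negative, and with all 19 libraries it was -0.19, with 19 of 30 negative. All 29 values come from the same mice, so their signs are not independent. In treated mice, 7 genes were lower in every BPH/2J kidney than in every BPN/3J kidney (Tagap, Cd3e, C1qb, Cd52, Ctss, Ms4a1 and Ptprc). This held for 6.37% of all genes in that direction. Of the 7, the test called Tagap and Cd3e. Cd3e and Ms4a1 were tested only because of their higher level in BPN/3J kidneys. In vehicle mice only Tagap had ranges apart, against 13.6% of all genes in either direction.

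Further leukocyte genes, in lists that do not contain the 33, were read from the same fit for the strain difference averaged over both arms. Of 31 tested macrophage and myeloid genes, 2 were higher in BPH/2J and 2 were lower, and without BPH/2J vehicle replicate 2 the counts were 2 and 7. Of all genes, 13.2% were higher and 10.4% lower in this comparison, and 12.7% and 10.5% without that mouse. Fcgr2b, the inhibitory IgG receptor, was at 44.9 ± 5.17 CPM in BPH/2J and 27.5 CPM in BPN/3J (log2 difference 0.73, edgeR adjusted p = 2.2e-06). Its estimated counts were not whole in 13 of the 19 libraries. In BPH/2J vehicle replicate 2 it was at 44.2 CPM, within the 37.6 to 47.1 CPM of its group. The folate receptor gene Folr2 of resident macrophages was at 1.63 CPM in BPH/2J and 0.302 CPM in BPN/3J (log2 difference 2.40, adjusted p = 5.7e-05). Irf8, a transcription factor of monocytes, dendritic cells and B cells, was lower (-0.53; adjusted p = 0.00316), as was the glucan receptor gene Clec7a (-1.08; adjusted p = 0.0456). Of 18 further T and NK genes, 1 was higher, the granzyme gene Gzma (1.40, edgeR adjusted p = 0.0217), and none was lower. Among Cmpd17b-treated mice alone 0 were higher and 1 was lower, Cd2 (-1.90, edgeR adjusted p = 0.0499). Of 11 further B and plasma cell genes none was higher and 4 were lower, among them Xbp1, the secretory factor also used by kidney tubules, and the B lineage genes Pax5 and Cd22. Of 14 dendritic cell and MHC class II genes none was higher and 8 were lower, among them H2-Ab1, at 29.6 ± 18.7 CPM in BPH/2J and 67.8 CPM in BPN/3J (-1.30; adjusted p = 0.00105), and Clec9a, a receptor of cross-presenting dendritic cells (-2.05; adjusted p = 0.000999). Of the 4 tested neutrophil genes and 3 mast cell genes none was called by edgeR, DESeq2 or limma-voom. In edgeR 2 and 1 of them had an unadjusted p under 0.05, as did 5960 of all 16421 genes. Without BPH/2J vehicle replicate 2 the neutrophil gene S100a9 was called higher. Among Cmpd17b-treated mice alone S100a9 was called higher in the fit of 18 libraries too (log2 difference 1.37, edgeR adjusted p = 0.0317).

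For Cmpd17b none of these further leukocyte genes was called in edgeR or limma-voom in either strain. In BPH/2J an unadjusted p under 0.05 in edgeR was found for 2 of 31 macrophage and 1 of 11 B cell genes. It was found for 6 of 14 dendritic cell and MHC class II genes, 2 of 4 neutrophil genes and 608 of all 16421 genes. BPH/2J vehicle replicate 2 was the highest of its group for 10 of the 14 dendritic cell and MHC class II genes. Counts without that mouse are not given here. DESeq2 called 1 gene, the neutrophil alarmin gene S100a8, higher in Cmpd17b. Neutrophil genes summed to between 5.92 and 7.73 CPM in BPH/2J Cmpd17b and 1.09 and 3.94 CPM in BPH/2J vehicle, without overlap. Heart muscle genes summed to between 145 and 208 CPM in the same 4 treated libraries and between 5.86 and 14.96 CPM in BPH/2J vehicle, and their part in the neutrophil values was not tested. In BPN/3J, 2 macrophage, 2 T cell, 1 B cell and 1 MHC class II or dendritic cell gene had an unadjusted p under 0.05 in edgeR. This held for 415 of all 16421 genes, and DESeq2 called none of the further leukocyte genes.

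Markers of other tissues moved with some groups. Urothelium genes summed to between 0.634 and 4.01 CPM in BPH/2J Cmpd17b, 2.38 and 55.5 CPM in BPH/2J vehicle, 1.16 and 6.99 CPM in BPN/3J Cmpd17b and 1.29 and 8.21 CPM in BPN/3J vehicle. Red blood cell genes summed to between 1128 and 1741 CPM in BPH/2J Cmpd17b, 472 and 1725 CPM in BPH/2J vehicle, 624 and 896 CPM in BPN/3J Cmpd17b and 587 and 752 CPM in BPN/3J vehicle, and 5 of their 6 tested genes were higher in BPH/2J. Ccl21a, a chemokine of lymph node stroma and lymphatic vessels, was at 5.73 CPM in BPH/2J and 1.73 CPM in BPN/3J (log2 difference 1.73; edgeR adjusted p = 7.82e-05), opposite in direction to the B cell and CD3 genes. The strain difference of fat cell genes in treated mice was negative for 9 of 9 tested, with a median of -4.44 on the log2 scale, with 7 at an unadjusted p under 0.05 and 1 called in edgeR (Thrsp). Their interaction term was negative for 8 of 9, with a median of -5.12, 8 at an unadjusted p under 0.05 and none called by edgeR, DESeq2 or limma-voom. The part of blood, fat, lymphatic tissue or sampled region in the leukocyte differences was not tested.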

How the data were processed

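Polyadenylated RNA from kidneys was sequenced, 1 library per mouse. The submitters' processing notes name Trim Galore 0.6.7, STAR 2.7.9a and the build mm39 (GRCm39). The authors deposited estimated counts per gene, that is expected counts, made by a tool that the sources used here do not name. Values were rounded to whole numbers for testing. Among the 31 genes, 24 had whole values in every library.

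Of 19 libraries 18 entered 1 fit of 4 groups with no covariate: edgeR 4.0.16 (quasi-likelihood, robust) under R 4.3.3, TMM factors, filterByExpr (at least 10 counts, total at least 15) and Benjamini-Hochberg adjustment over 16421 genes, called at 0.05. The biological coefficient of variation was 0.251. There were 7 comparisons. Strain differences are BPH/2J over BPN/3J and treatment differences Cmpd17b over vehicle. CPM are on the TMM scale. The depth of 21400111 to 40998650 counts makes genes of a few reads per library imprecise. No replicate pair agreed within sampling noise. The test was checked on simulated data with known changes.

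Alternatives were DESeq2 1.42.0, limma-voom (limma 3.58.1), DESeq2 size factors, no filter, 1 CPM in 4 libraries, a fit that is not robust, all 19 libraries, only the compared groups and leaving out each library. The genes and lists were chosen with earlier results of these data known. Values in every library are given for called genes and for Ptprc, Adgre1, Cd68, Cd163, C1qa, Cd3e, Cd8a, Nkg7 and Cd79a; Jchain, Lyz2, Ctss, Csf1r and Tagap1 were added after their values had been seen. From further lists, up to 4 called genes with the smallest p were eligible. Exon lengths and transcripts came from GENCODE M21 (GRCm38) and promoters from RefSeq GRCm38.p6. Plots used matplotlib 3.10.9 (Python 3.11.15).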

Additional observations from a re-analysis of the deposited data

Results flagged for a closer look

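Dixon's test was applied to each of 31 genes in each of 4 groups, and 21 of the 124 sets held a kidney set apart from its group. Chance at 1 in 20 would give 6.2 for independent, normally distributed sets. These sets share mice and hold CPM that are not on a log scale. The share over all genes was not counted, so the number does not describe leukocyte genes in particular. All 21 were high values.

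BPH/2J vehicle replicate 2 accounted for 10 of them. It stood apart for Lyz2 at 81.0 CPM, Ctss at 21.9 CPM, C1qa at 18.9 CPM, C1qc at 13.5 CPM, C1qb at 11.9 CPM, the mannose receptor gene Mrc1 at 7.03 CPM, Cx3cr1 at 6.77 CPM, Cd68 at 4.81 CPM, Adgre1 at 3.60 CPM and the integrin gene Itgam at 2.58 CPM. BPH/2J Cmpd17b replicate 5 stood apart for Cx3cr1 at 5.02 CPM, Cd79b at 1.21 CPM and Cd3g at 0.634 CPM. BPN/3J Cmpd17b replicate 5 did so for Jchain at 45.0 CPM, Cd52 at 6.18 CPM, Cx3cr1 at 5.84 CPM, Tyrobp at 4.41 CPM and the integrin gene Itgax at 2.07 CPM. BPN/3J vehicle replicate 4 did so for Jchain at 48.7 CPM, Laptm5 at 5.52 CPM and the IgG receptor gene Fcgr3 at 1.90 CPM.

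The heart-rich library left out of the comparisons was higher than each of the 18 others for 11 of the 31 genes. It held Lyz2 at 118 CPM, C1qa at 32.8 CPM, Mrc1 at 26.5 CPM, C1qc at 23.8 CPM, C1qb at 20.7 CPM, Cd163 at 9.08 CPM, Fcgr3 at 7.496 CPM, Cd68 at 6.62 CPM, the Fc receptor gamma chain gene Fcer1g at 5.07 CPM, Itgam at 4.04 CPM and Ms4a1 at 0.743 CPM. The share of all genes for which this library was the highest was not counted, and its values are not on the TMM scale of the others. Fcgr3 shares 96.5% of 509 aligned bases with Fcgr2b. Estimated counts were not whole in 8 libraries for Fcgr3 and in 13 for Fcgr2b.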

How the results depend on the processing

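No paired analysis was possible, because replicate numbers only follow the order of listing and no animal number in the labels is shared between groups. The number of leukocyte genes called for Cmpd17b within a strain was 0 in each of 26 alternatives, and for the averaged effect and the interaction in each of 25. In vehicle mice 2 genes differed between the strains, and 1 did with limma-voom, DESeq2 size factors, no filter, all 19 libraries or only the compared groups. That 1 gene was 3.23% to 3.70% of those tested, against 3.43% to 11.3% of all genes. When a library was left out, 1 to 3 did. The 3 were 10.3%, against 12.5% of all genes without BPH/2J vehicle replicate 1 and 9.23% without replicate 2. In treated mice 2 differed, and DESeq2 called 4 (13.8%, against 13.7% of all genes), adding Cd52 and Ptprc. The filter of 1 CPM in 4 libraries left 1 (4.35%, against 10.5% of all genes). Only the compared groups gave 5 (17.2%, against 8.58% of all genes). Leaving out a library gave 1 to 4. The 4 were 13.8%, against 10% of all genes, without BPH/2J vehicle replicate 2. Without BPH/2J Cmpd17b replicate 5 they were 13.3%, against 9.02%. Averaged over both arms 4 differed; DESeq2 and limma-voom each called 8 (27.6%, against 27.6% and 22.7% of all genes), and leaving out a library gave 2 to 8. The leukocyte share exceeded that of all genes in 6 of 26 alternatives in treated mice, 1 of 26 in vehicle mice and 6 of 25 averaged over both arms. The 8 without BPH/2J vehicle replicate 2 were 27.6%, against 23.2% of all genes. They compare with 7 without BPH/2J Cmpd17b replicate 5 or BPH/2J vehicle replicate 5 (23.3%, against 21.2% and 21.8% of all genes). Without BPN/3J Cmpd17b replicate 2 or 5 there were 2 (7.14%, against 20% and 24.4% of all genes). With all 19 libraries C1qb in treated mice turned to 0.13 and Ctss averaged over both arms to 0.014 on the log2 scale; that setting adds the heart-rich library, which was high for macrophage genes. For the other settings the cause was not tested. For single genes, 575 alternative values kept direction and side of the threshold, 40 newly passed it, 31 no longer did and 2 reversed. Genes with 0 to 19 reads per library, such as Cd3e, are limited by counting error.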
